A study of Homo sapiens with 21 samples.

Results

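In this RNA-seq time course of HMLE cells, 88 genes stood at or below the 50% mark of their untreated mean on each of the 6 treated days. HMLE is an established cell line, made by immortalizing human mammary epithelial cells, and TGFβ is a cytokine that drives epithelial cells through an epithelial-to-mesenchymal transition (EMT). The groups were untreated HMLE cells (d0) and HMLE cells after 1, 4, 7, 10, 15 and 20 days of TGFβ treatment (d1 to d20), with 3 libraries each and 21 in all. No dose of TGFβ was given in the sources used here, the line carried no other labelled allele or agent, and there were no untreated cells of the later days, so days in culture and days of TGFβ cannot be told apart. The members were chosen by the measured values themselves: among 23201 gene symbols, 10467 had a d0 mean of at least 100 normalized reads, and a member had to hold at most 0.5 of its d0 mean in every treated mean. Keratins, SPRR, KLK, S100 and IFI genes and *ID1* to *ID4* were left out by their symbols, which removed 8 further genes that met both limits (*KLK5*, *KLK7*, *KLK8*, *KRT13*, *KRT15*, *S100A8*, *S100A9* and *SPRR1A*). With those 8, the rule held for 0.917% of the genes at or above the d0 minimum, and by comparison 179 genes at least doubled on every treated day.

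TGFβ binds a pair of receptor kinases that phosphorylate SMAD transcription factors, and exposure to it induces repressors of the ZEB and SNAI families. These repressors bind E-box sequences in the promoters of epithelial genes, among them those for cell junctions. A mammary epithelial cell in culture also keeps part of a stratified epithelial program, with GRHL, AP-2 and ETS family transcription factors upstream of envelope and barrier genes. EMT lowers many of these genes while the cell gains vimentin, fibronectin and other mesenchymal proteins.

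Sequencing depth was 18847917 to 22667754 reads per library. The values are normalized reads per gene, not per length, so levels are compared between libraries and never between genes. All 10 mammary epithelial markers checked, including *CDH1*, *TP63* and *KRT5*, stood above 3 reads in every library. Their summed level was 360928 to 386513 at d0, 315247 to 327368 at d1, 300483 to 309441 at d4, 358349 to 719803 at d7, 226536 to 230678 at d10, 513680 to 530478 at d15 and 286946 to 290535 at d20. *KRT5*, *KRT14* and *KRT17* made up most of this sum. From d0 to d15 the mean of *KRT17* rose from 39309 to 186677, and *KRT14*, *TP63*, *KRT8*, *KRT19* and *ITGA6* were also higher. *KRT5* went from 224349 to 175809, *EPCAM* from 2106 to 392 and *CDH1* from 7195 to 6337, and *KRT18* was lower too. The 10 mesenchymal markers summed to 14419.5 to 15190.4 normalized reads at d0 and to at least 342761 in every treated library. Summed leukocyte (10 genes), endothelial (8 genes) and hormone-responsive or milk (7 genes) markers stayed at or below 1489, 298 and 80.2 normalized reads in every library. *CSF1R* carried most of the leukocyte sum and *ESR1*, with means of 13.7 to 57.2, most of the hormone-responsive or milk sum. *KDR* averaged 42.1 at d0, 157 at d7 and 263 at d15, where it made up most of the endothelial sum. At d0 *PECAM1* averaged 41.3 and *CD14* 46.4, and *LYZ* averaged 13.8 to 19.5 over the days. *MS4A1*, *HBB*, *PGR* and *CSN2* averaged 0 on every day and *PTPRC*, *CD3E* and *CDH5* less than 1. The third d7 library, by column order, stood apart from its group: over the members its root mean square log2 distance to the other d7 libraries was 1.00 and 1.02, against at most 0.59 between libraries of any other day. It was the lowest of the 3 in 66 members and the highest in 16, its mammary epithelial marker sum of 358349 stood against 719803 and 673402 in the others, and the members summed to 15362, 14654 and 10831 normalized reads in the 3 d7 libraries. Without it, 76 of the 88 genes met the rule, and *ACCN2*, *AKR1B10*, *GMPR*, *GRHL3*, *GRTP1*, *IL1RN*, *IMPA2*, *LNX1*, *MAML3*, *SERPINB13*, *VSNL1* and *ZNF750* did not.

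All 88 members had their lowest d0 library above every one of the 18 treated libraries, by a factor of at least 1.44. Since the d0 contrast chose the members, this separation is a description and was not tested. The median member held 30.0% of its d0 mean on d1, 24.1% on d4, 30.1% on d7, 14.8% on d10, 22.5% on d15 and 17.04% on d20. The level was not a steady decline: 49 members had their lowest mean at d10 and 16 at d15, whereas 35 had their highest treated mean at d1, 27 at d7 and 14 at d15. Among all genes with a d0 mean of at least 100, the share at or below the cap was 2.57% on d1, 3.93% on d4, 2.28% on d7, 5.03% on d10, 8.54% on d15 and 3.62% on d20. Of the 269 genes under the cap at d1, 173 were over it on another treated day. In bulk RNA, fewer cells that express a gene and less of its RNA per cell cannot be told apart. Rescaling every library to the same total lowered the median log2 ratio of the genes with a d0 mean of at least 100 on each treated day. It went from 0.05 to -0.18 at d10, from -0.02 to -0.22 at d4 and from -0.03 to -0.19 at d15. The median member then stood at 12.6% of d0 at d10 and 26.4% at d7.

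**Figure D1:**
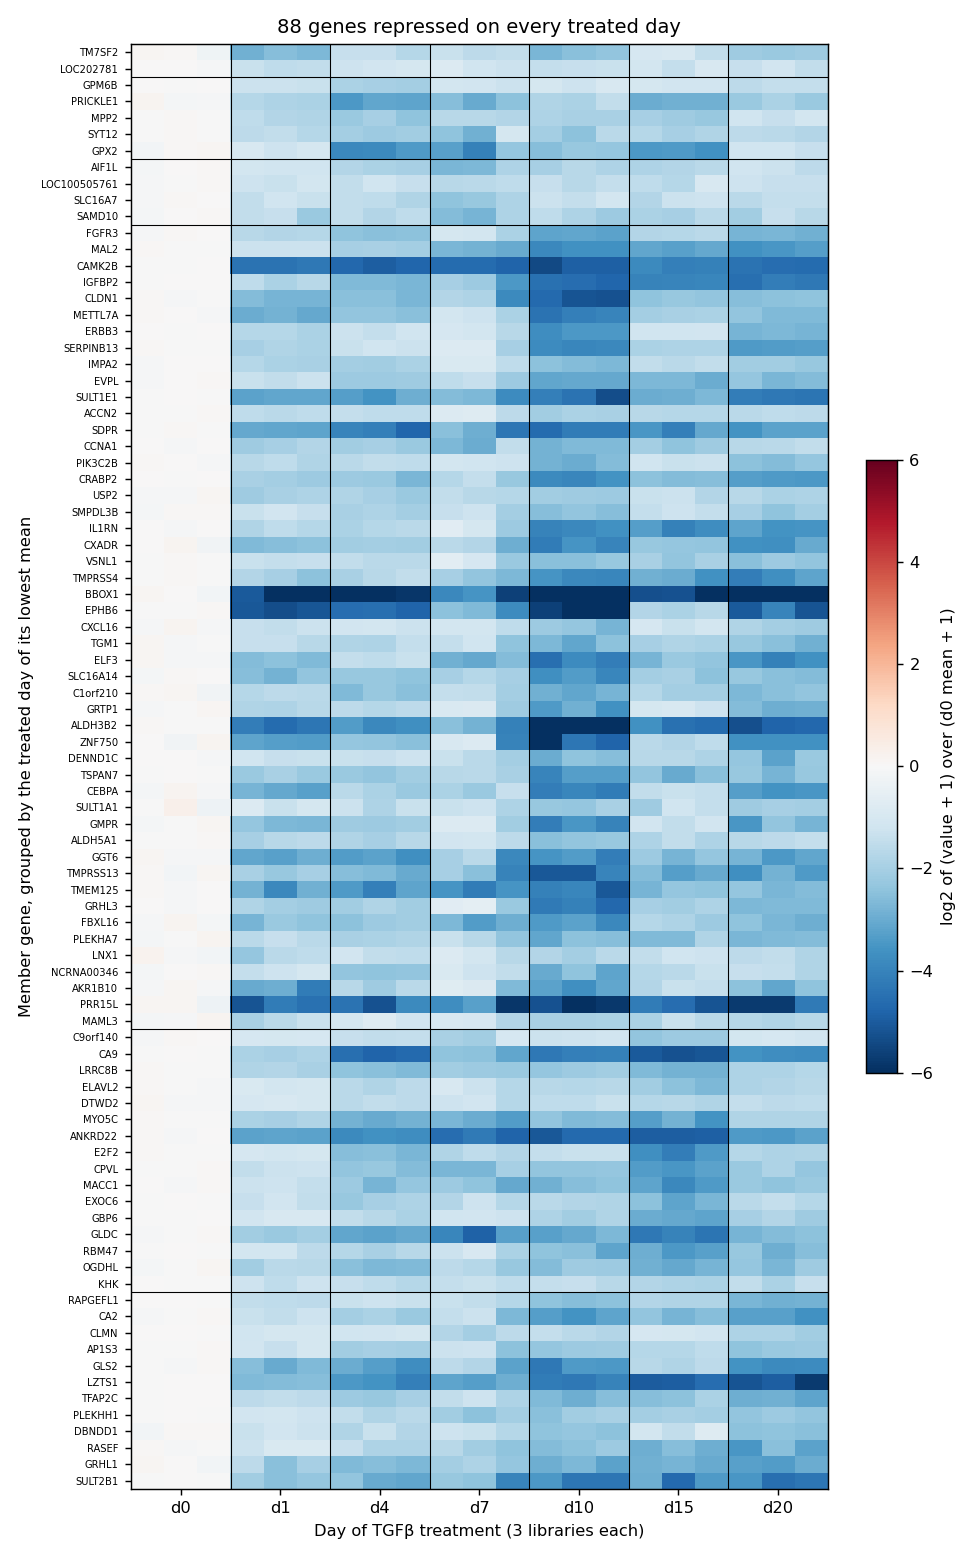
Heat map of the 88 members (rows, grouped by the treated day of their lowest mean) in all 21 libraries (columns, 3 per day), colored by the log2 of value + 1 over d0 mean + 1. All treated columns are blue, the d10 block holds 49 genes, and the third d7 column is darker than its neighbors in many of them.

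The range of the repression was wide. In 16 members the highest treated mean was at most 25% of d0, in 3 it was at most 10%, and in 42 it was over 40%. The ratio of the highest to the lowest treated mean had a median of 3.14 and was at least 2 in 73 members. In the 81 members with every library above 3 reads it ran from 1.28 to 11.6 with a median of 2.86. In the others the lowest mean rests on few reads. The ratio of 11.6 was that of *GRHL3*, whose lowest mean, at d10, also rests on few reads (6, 7 and 4). Mean d0 values ran from 101 to 4670 normalized reads with a median of 290.0. Just inside the cap lay *ACCN2* (now *ASIC1*, an acid-sensing ion channel) with a highest treated mean of 49.3% of d0, *MAML3* (a Notch coactivator) with 49.8% and *GRHL3* with 49.9%. Just outside it lay *EPCAM*, an epithelial adhesion molecule, with 50.8%, *GPD1L* with 51.3% and *CGN*, which encodes the tight junction protein cingulin, with 51.4%. *EPCAM* was over the cap at d1 alone, where it averaged 1070 normalized reads against 2106 at d0, and it averaged 565 or fewer on every later day.

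**Figure D2:**
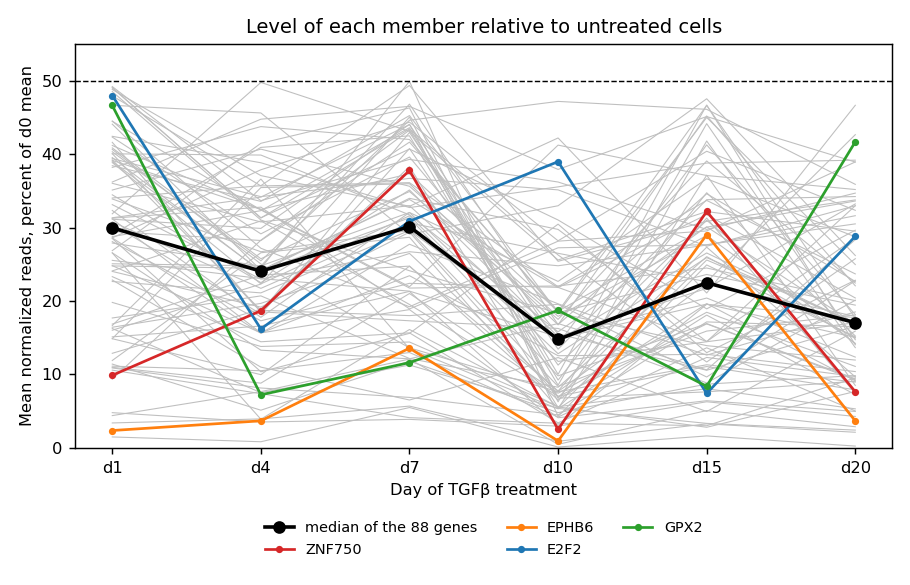
Mean normalized reads on each treated day as a percent of the d0 mean (y axis) against the day of TGFβ (x axis), with 1 gray line per member, the median in black and 4 members in color. The dashed line is the cap of 50%; the median is lowest at d10 (14.8%), where *ZNF750* and *EPHB6* also dip, while *E2F2* and *GPX2* dip at d4 and d15.

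Several members encode transcription factors of the epithelial state. Of the 28 epithelial transcription factors measured at or above the d0 minimum, 6 were members: *GRHL1*, *GRHL3*, *ELF3*, *TFAP2C*, *ZNF750* and *CEBPA*. The median gene of the list held 90.0% of d0 at d1, 112.6% at d4 and 68.0% at d10. The medians of all genes with a d0 mean of at least 100 were 100.2%, 98.7% and 103.2% on those days. *ZNF750*, a zinc finger factor of terminal epidermal differentiation, measured 198, 168 and 214 normalized reads at d0, 20.9, 18.5 and 17.9 on d1, 37.9, 37.0 and 33.3 on d4, 100.2, 107 and 11.2 on d7, 0, 8.75 and 5.87 on d10, 62.2, 57.0 and 67.3 on d15 and 14.8, 14.7 and 14.7 on d20. Its d0 libraries lay above all treated ones, the d10 libraries lay below all others, and at d7 the first and second libraries stood far above the third. *GRHL3*, a grainyhead-like factor of epithelial barriers, measured 131, 125 and 133 normalized reads at d0, 36.6, 30.8 and 28.8 on d1, 29.4, 36.0 and 29.4 on d4, 81.3, 85.5 and 27.0 on d7, 5.97, 6.80 and 3.91 on d10, 31.6, 29.9 and 35.2 on d15 and 19.1, 20 and 19.6 on d20. The d10 libraries of *GRHL3* again lay below those of every other day, and without the third d7 library its d7 mean was above the cap. *CEBPA*, a C/EBP family factor, measured 166, 198 and 170.2 normalized reads at d0, 25.1, 20.5 and 17.9 on d1, 56.8, 47.7 and 37.2 on d4, 47.5, 37.5 and 67.9 on d7, 8.96, 10.7 and 8.80 on d10, 62.2, 70.5 and 65.3 on d15 and 16.96, 13.7 and 14.7 on d20. It was low at d1, d10 and d20 and intermediate at d4, d7 and d15, with no overlap between these groups of days. *ELF3*, an epithelium-specific ETS factor, measured 248, 215 and 218 normalized reads at d0, 36.6, 41.0 and 35.7 on d1, 83.1, 77.9 and 88.1 on d4, 29.6, 26.1 and 36.3 on d7, 8.96, 15.6 and 11.7 on d10, 31.6, 47.9 and 43.5 on d15 and 19.1, 12.6 and 17.6 on d20. Its d4 libraries stood above all other treated ones. *GRHL1* and *TFAP2C*, the latter encoding AP-2γ, had their lowest means at d20, with 10.4% and 12.4% of d0. In both the d20 libraries overlapped those of d10. Their means stayed at or below 24.8% and 35.1% of d0 on every treated day.

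**Figure D3:**
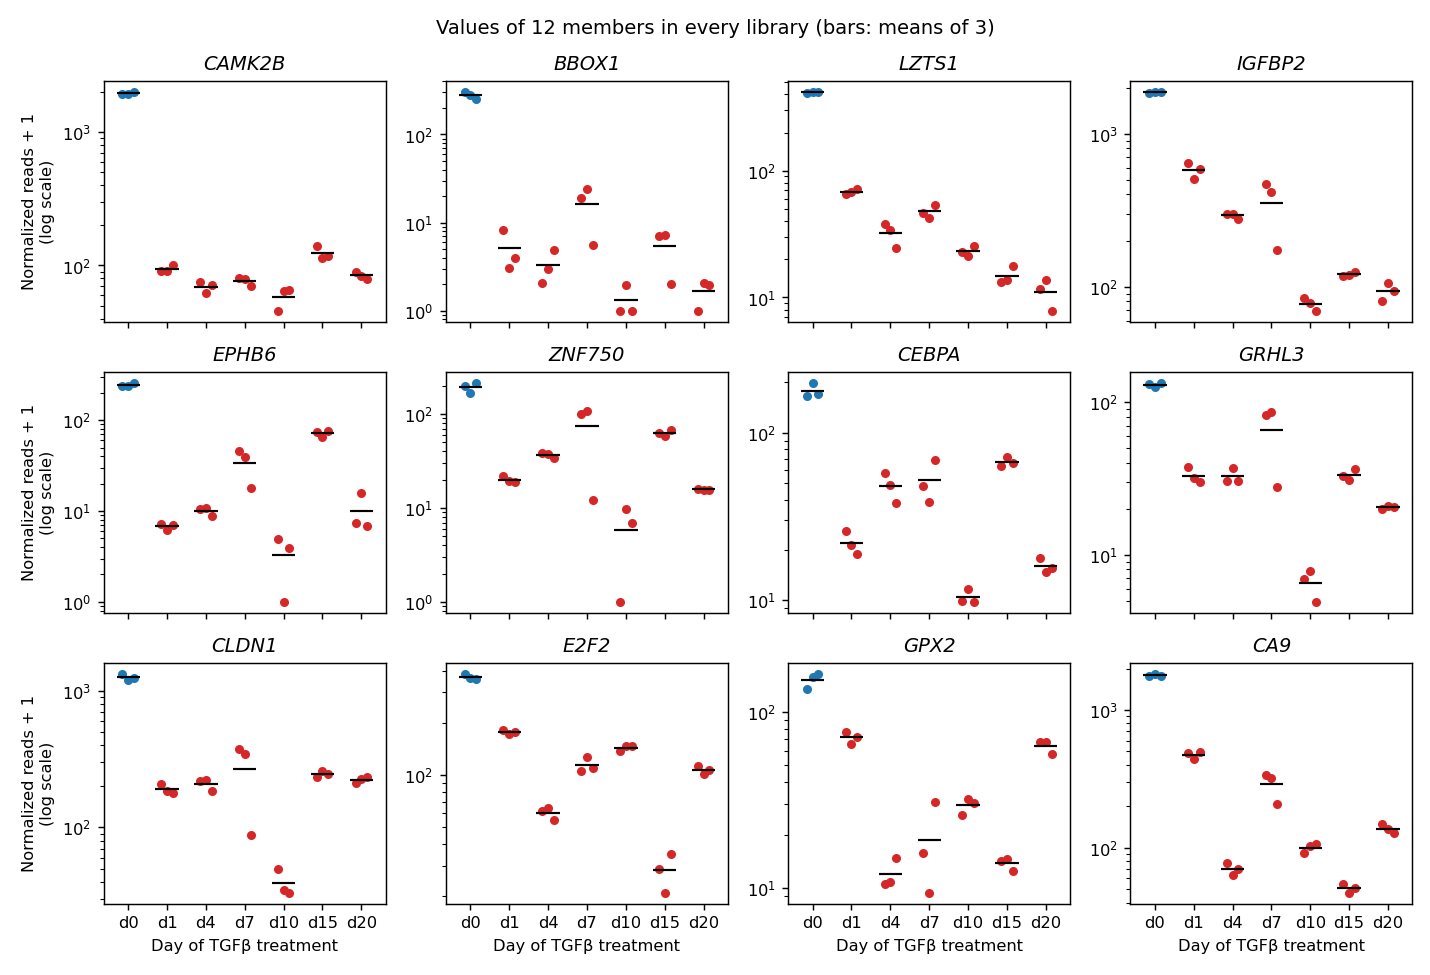
Normalized reads + 1 on a log scale (y axis) in each of the 3 libraries per day (x axis) for 12 members, with d0 in blue, treated days in red and bars at the means of 3. In each panel the 3 d0 points lie above all 18 treated points, and *ZNF750*, *GRHL3*, *CEBPA*, *CLDN1* and *EPHB6* are lowest at d10.

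Promoter sequence was read from RefSeq (build GRCh38.p14) because ZEB and SNAI factors bind the E-box CAGGTG, and it is shown for the epithelial transcription factors and the envelope-list gene with a box in the window printed. The capitals mark CAGGTG or its reverse complement CACCTG in the 120 bases before the annotated start, each printed 5′ to 3′ on the gene's strand.
*ELF3*, chr1:202010467-202010586, plus strand: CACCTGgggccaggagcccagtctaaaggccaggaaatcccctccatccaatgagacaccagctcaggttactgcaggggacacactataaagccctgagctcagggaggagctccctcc
*GRHL3*, chr1:24319237-24319356, plus strand: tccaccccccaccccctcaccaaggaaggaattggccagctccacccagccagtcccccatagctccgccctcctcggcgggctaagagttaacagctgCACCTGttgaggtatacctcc
*SULT2B1*, chr19:48552052-48552171, plus strand: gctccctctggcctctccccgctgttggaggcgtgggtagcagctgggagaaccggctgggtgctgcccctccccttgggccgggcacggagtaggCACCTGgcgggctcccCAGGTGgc
*GRHL3* and *ELF3* carried 1 box each in this window, that of *ELF3* at its far edge, and *SULT2B1* carried 2. In all, 7 of the 57 members with a promoter had a box there, and *C1orf210*, *LNX1*, *MACC1* and *MYO5C* are not printed. The transcription factor members *GRHL1* and *CEBPA* had a promoter but no box, even in the 250 bases before the start. *TFAP2C*, *ZNF750* and the envelope-list members *TGM1* and *EVPL* had no promoter to search. Only 57 of the 88 members had a promoter in the table, so a comparison of motif shares between members and other genes is void and none is given. Over all 27305 promoters, in the 250 bases before the start and on both strands, 17.5% held CAGGTG, 13.8% CAGCTG, 37.8% the SMAD box CAGAC, 16.1% the GC-rich SMAD box GGCGCC and 6.60% the AP-1 site TGANTCA. The other motifs searched were the interferon response motif (3.07% of all promoters), CCCCACCC (9.80%) and TATAAA (11.1%). These shares are for 250 bases and not for the 120 bases printed, so the count of 7 cannot be set beside them. A match is a stretch of letters and was not tested as a binding site.

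Genes of the cornified envelope and late epidermal differentiation made up 6 members of 27 measured at or above the d0 minimum. At d10, 17 of the 27 were at or below the cap, against 5.03% of all genes at or above that minimum. The rule held for 0.917% of those genes with the left-out families counted. Families left out by symbol could not be members, whereas the counts of 27 and 17 were not filtered by symbol. *TGM1*, the transglutaminase that cross-links envelope proteins, measured 259, 226 and 238 normalized reads at d0, 93.1, 92.3 and 75.4 on d1, 68.4, 65.2 and 89.1 on d4, 88.7, 106 and 43.7 on d7, 35.8, 27.2 and 43.0 on d10, 60.2, 68.7 and 63.2 on d15 and 49.8, 41.0 and 31.3 on d20. *EVPL*, which encodes the envelope and desmosome protein envoplakin, measured 766, 806 and 828 normalized reads at d0, 315, 289 and 328 on d1, 177, 177 and 182 on d4, 275, 304 and 179 on d7, 92.5, 95.2 and 94.8 on d10, 124, 123 and 99.5 on d15 and 158, 119.98 and 131 on d20. Both were lowest at d10, and in *EVPL* the d10 libraries did not overlap those of any other day. *SULT2B1*, the cholesterol sulfotransferase of the epidermal barrier, fell to 5.61% of d0 at d10 and 5.31% at d20. The remaining members of the list were *GRHL1*, *GRHL3* and *ZNF750*. *SERPINB13*, an epithelial serpin and the only member among 11 measured serpins and protease inhibitors, held 41.5% of d0 at d4 and 6.84% at d10.

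Cell junction and polarity genes gave 3 members of 32, *CLDN1*, *MAL2* and *CXADR*, although 21 of the 32 were at or below the cap at d20 and 15 at d10. Over all genes at or above the d0 minimum, the shares under the cap were 3.62% at d20 and 5.03% at d10. *CLDN1*, which encodes the tight junction protein claudin-1, measured 1321, 1195 and 1244 normalized reads at d0, 208, 183 and 178 on d1, 219, 221 and 184 on d4, 374, 341 and 86.6 on d7, 48.8, 34.0 and 32.3 on d10, 234, 256 and 246 on d15 and 209.9, 223 and 234 on d20. The d10 libraries were the lowest, and the third d7 library stood below every d1, d4, d15 and d20 library. *MAL2*, a membrane protein of apical transport, measured 4408, 4138 and 4219 normalized reads at d0, 1729, 1718 and 1742 on d1, 1059, 1102 and 1036 on d4, 635, 586 and 517 on d7, 292, 346 and 337 on d10, 494, 450.4 and 500.3 on d15 and 337, 377 and 429.9 on d20. It had the second highest d0 mean of all members and a different course, with each of the days d1, d4, d7 and d10 below the one before it and no overlap between them. *CXADR*, the coxsackievirus and adenovirus receptor of tight junctions, held 16.9% of d0 at d1, 6.52% at d10 and 9.14% at d20.

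Receptors and signaling genes included the highest member at d0, *FGFR3*, a fibroblast growth factor receptor. It measured 4445, 4892 and 4672 normalized reads at d0, 1462, 1363 and 1442 on d1, 872, 821 and 861 on d4, 2282, 2195 and 1233 on d7, 526, 544 and 508 on d10, 1379, 1434 and 1529 on d15 and 666, 686 and 631 on d20. The d4, d10 and d20 libraries lay below all d1, d7 and d15 libraries. *ERBB3*, the only member among 11 ERBB receptors and EGF-like ligands, measured 1069.7, 1042 and 1058 normalized reads at d0, 317, 321 and 282 on d1, 433, 397 and 466 on d4, 523, 490.0 and 333 on d7, 79.6, 95.2 and 95.8 on d10, 464, 459 and 477 on d15 and 153, 164 and 149.8 on d20. Its d10 libraries lay below all others and its d20 libraries below all remaining ones. *EPHB6*, an Eph receptor without kinase activity, measured 239, 238 and 256 normalized reads at d0, 6.28, 5.13 and 5.95 on d1, 9.47, 9.74 and 7.83 on d4, 44.3, 38.6 and 16.8 on d7, 3.98, 0 and 2.93 on d10, 72.4, 65.1 and 75.6 on d15 and 6.36, 14.7 and 5.88 on d20. It kept 2.37% of d0 at d1 and 0.941% at d10 but 29.0% at d15. The d10 libraries held 4, 0 and 3 reads of it, so the share at d10 is imprecise. *CAMK2B*, a subunit of calcium/calmodulin-dependent kinase II, measured 1929, 1909 and 1988 normalized reads at d0, 90.0, 90.2 and 99.2 on d1, 73.6, 61.4 and 70.5 on d4, 79.2, 78.2 and 68.9 on d7, 44.8, 63.2 and 64.5 on d10, 138, 112 and 116 on d15 and 89.0, 82.1 and 78.3 on d20. It was at or below 6.28% of d0 on every treated day, and it had reached 4.80% by d1.

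*IGFBP2*, a binding protein for insulin-like growth factors, measured 1843, 1860.1 and 1871 normalized reads at d0, 644, 505 and 589 on d1, 299, 298 and 276 on d4, 466, 412 and 171 on d7, 83.6, 76.8 and 68.5 on d10, 116, 118 and 123 on d15 and 79.5, 104 and 93.0 on d20. It was the only member among 8 measured genes of the IGF axis, and its d10, d15 and d20 libraries lay below all earlier ones. *LZTS1*, a leucine zipper protein, measured 411, 415 and 417 normalized reads at d0, 64.8, 66.7 and 70.5 on d1, 36.8, 33.1 and 23.5 on d4, 45.4, 41.7 and 53.05 on d7, 21.9, 20.4 and 24.4 on d10, 12.2, 12.7 and 16.6 on d15 and 10.6, 12.6 and 6.85 on d20. Its d15 and d20 libraries lay below those of all earlier days. *RAPGEFL1*, which encodes a guanine nucleotide exchange factor-like protein, held 40.7% of d0 at d4 and 14.2% at d20. *GPM6B*, a membrane glycoprotein gene, had the smallest ratio of highest to lowest treated mean (1.85) of the 8 members with the highest d0 means, and ran between 25.5% at d4 and 47.2% at d10. *CXCL16*, a chemokine, and *IL1RN*, the interleukin-1 receptor antagonist, were the members among 21 measured innate defense genes, and both were lowest at d10, with 18.4% and 6.77% of d0.

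Enzymes and carriers of small molecules held several of the deepest losses. Of 23 measured genes listed under retinoid, steroid and xenobiotic metabolism, 5 were members: *ALDH3B2*, *CRABP2*, *AKR1B10*, *SULT1E1* and *BBOX1*. *BBOX1* is the enzyme of the last step of carnitine synthesis, which belongs to none of these pathways. It measured 303, 277 and 249 normalized reads at d0, 7.32, 2.05 and 2.98 on d1, 1.05, 1.95 and 3.92 on d4, 17.9, 22.9 and 4.65 on d7, 0, 0.97 and 0 on d10, 6.12, 6.33 and 1.04 on d15 and 0, 1.05 and 0.98 on d20. At d10 and d20 every library held at most 1 read of it, so the gene was at least 93.8-fold and at least 89.3-fold lower than at d0, taking 3 reads per library as the floor. *ALDH3B2*, an aldehyde dehydrogenase, measured 208, 200.2 and 196 normalized reads at d0, 10.5, 7.18 and 8.93 on d1, 18.9, 12.7 and 14.7 on d4, 34.8, 27.1 and 11.2 on d7, 0, 1.94 and 0.98 on d10, 15.3, 8.14 and 7.25 on d15 and 4.24, 6.31 and 6.85 on d20. It was at least 68.4-fold lower at d10, and *PRR15L*, with 2, 0 and 1 reads at d10, was at least 37.3-fold lower. *SULT1E1*, the estrogen sulfotransferase, measured 658, 670.1 and 662 normalized reads at d0, 71.1, 75.9 and 74.4 on d1, 67.3, 54.5 and 87.2 on d4, 108, 103 and 47.5 on d7, 37.8, 30.1 and 15.7 on d10, 84.7, 85.0 and 102 on d15 and 36.0, 32.6 and 31.3 on d20. It had lost most of its signal by d1 and was lowest at d10, with no overlap between d10 and d15. *CRABP2*, a carrier of retinoic acid, held 29.4% of d0 at d7 and 6.98% at d10. *AKR1B10*, a retinal-reducing aldo-keto reductase whose reads can be shared with close paralogs, held 9.35% at d1 and 43.3% at d7. *SDPR* (now *CAVIN2*, a caveola protein) and *ANKRD22* were also among the 8 members with the lowest ceiling, at no more than 11.8% and 10.6% of d0.

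A smaller set of members had a different timing. *CA9*, a cell-surface carbonic anhydrase induced by hypoxia, measured 1756, 1824 and 1763 normalized reads at d0, 483, 441 and 494 on d1, 76.8, 62.3 and 69.5 on d4, 336, 319 and 207 on d7, 90.6, 102 and 106 on d10, 54.1, 46.1 and 49.7 on d15 and 147, 136 and 127 on d20. Its d4 and d15 libraries were the lowest, without overlap with other days. *GPX2*, an epithelial glutathione peroxidase, measured 134, 157 and 164 normalized reads at d0, 76.3, 64.6 and 71.5 on d1, 9.47, 9.74 and 13.7 on d4, 14.8, 8.34 and 29.8 on d7, 24.9, 31.1 and 29.3 on d10, 13.3, 13.6 and 11.4 on d15 and 66.8, 66.3 and 56.8 on d20. It was near the cap at d1 and d20 and far below it at d4 and d15. *E2F2*, a transcription factor of the cell cycle, measured 381, 363 and 356 normalized reads at d0, 179.9, 172 and 176 on d1, 61.0, 63.3 and 53.9 on d4, 104, 126 and 109 on d7, 136, 146 and 147 on d10, 27.5, 19.9 and 34.2 on d15 and 111, 99.98 and 106 on d20. Its d15 libraries lay below all others, and its d4 libraries below those of d1, d7, d10 and d20. *C9orf140* (now *SAPCD2*, a regulator of spindle orientation) was also lowest at d15, with 21.1% of d0, and stood at 46.7% at d20. The 36 DNA replication and cell cycle genes measured at or above the d0 minimum had *E2F2* as the only member, and 16 of them were at or below the cap at d4, 34 at d15 and 1 at d10. Over all genes at or above that minimum, the shares were 3.93% at d4, 8.54% at d15 and 5.03% at d10.

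The rule compared each treated day with d0 and not treated days with each other, so contrasts between treated days were tested with limma over all 13343 genes with a mean of at least 10. A call needed a Benjamini-Hochberg adjusted p under 0.05 and a fold of at least 2. The cap at 0.5 of d0 limits how far a member can rise, and consecutive contrasts share a day. The p-values measure the spread between the libraries, described as biological triplicates by the study. Under these calls 68 members differed in at least 1 of the 6 contrasts, against 28.6% of all genes tested. Fold changes below are differences of log2(value + 1) with their standard error (SE), and that scale understates the change of low genes.

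From d1 to d4, 4 members rose and 10 fell, against 4.19% and 1.98% of all genes tested. The risers were *AKR1B10* (1.59, SE 0.39, adjusted p = 0.00117), *TM7SF2*, a sterol reductase (1.22, SE 0.15, adjusted p = 7.1e-07), *ELF3* (1.12, SE 0.20, adjusted p = 4.73e-05) and *CEBPA* (1.11, SE 0.20, adjusted p = 5.22e-05). The largest decreases were those of *CA9* (-2.75, SE 0.13, adjusted p = 9.52e-13), *GPX2* (-2.60, SE 0.27, adjusted p = 5.48e-08) and *E2F2* (-1.55, SE 0.13, adjusted p = 3.26e-09). With quantile normalization 2 rose and 13 fell, and *ELF3* and *CEBPA* then missed the fold limit. The cell cycle list moved in the same contrast, with 18 of its 37 tested genes lower and none higher, and its part in these values was not tested. The median member differed by -0.35 and the median gene by 0.01.

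From d4 to d7, 7 members rose and 1 fell, against 2.27% and 1.51% of all genes. *BBOX1* (2.14, SE 0.57, adjusted p = 0.00376), *CA9* (2.00, SE 0.13, adjusted p = 1.92e-10) and *EPHB6* (1.67, SE 0.44, adjusted p = 0.00341) rose most, and *ELF3* was the gene that fell (-1.42, SE 0.20, adjusted p = 5.42e-06). *FGFR3*, *GLS2*, *SDPR* and the noncoding *NCRNA00346* were the other risers. The counts depended on which d7 library was left out. Without the first or the second d7 library 4 members rose, and *FGFR3* (log2 differences of 0.95 and 0.98), *GLS2* and *SDPR* lost their calls. Without the third d7 library 3 members fell and 15 rose, and the risers then included *GRHL3* with a log2 difference of 1.38 and *ZNF750* with 1.502. The 8 members called with all libraries kept their call and direction without the third. Quantile normalization gave 6 higher and 2 lower, and edgeR and DESeq2 on recovered reads gave 11 higher each.

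From d7 to d10, 44 of the 88 members fell and 0 rose, against 9.09% and 3.63% of all genes tested. Only 36 members had a d7 mean low enough to double within the cap, so the 0 is partly set by the rule. It cannot be read against the 3.63%. *ALDH3B2* (-3.68, SE 0.39, adjusted p = 3.62e-08), *ZNF750* (-3.65, SE 0.66, adjusted p = 4.26e-05) and *EPHB6* (-3.56, SE 0.44, adjusted p = 3.38e-07) fell most. *GRHL3* (-3.18, SE 0.29, adjusted p = 4.02e-09), *SERPINB13* (-2.65, SE 0.18, adjusted p = 9.14e-11), *CLDN1* (-2.53, SE 0.32, adjusted p = 4.44e-07), *ERBB3* (-2.28, SE 0.12, adjusted p = 1.66e-12) and *CEBPA* (-2.27, SE 0.20, adjusted p = 2.38e-09) fell as well. The count of 0 in limma had 9 members higher at an unadjusted p under 0.05 and none of them at a fold of at least 2, and edgeR and DESeq2 also called 0 higher, with 48 and 46 lower. Quantile normalization called 4 higher and 30 lower. Without the third d7 library 4 members rose (*GLDC*, *GPX2*, *PRICKLE1* and *SLC16A7*) and 49 fell, 43 of the original 44 among them, and *LZTS1* was the exception. The median member differed by -1.01 and the median gene by 0.00. The mammary epithelial markers moved with the members, with 4 of 10 lower and 1 higher, as did the p53 target list, with 17 of 28 lower and 1 higher. The part of either in the members' values was not tested.

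**Figure D4:**
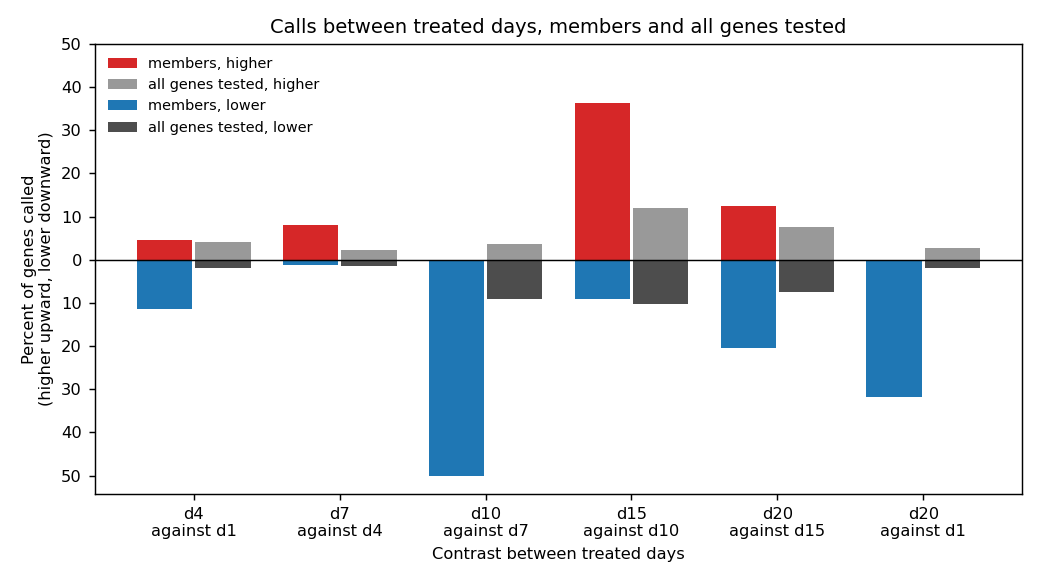
Percent of the 88 members (colored bars) and of all 13343 genes tested (gray bars) called higher (upward) or lower (downward) by limma in 6 contrasts between treated days (x axis). The tallest bars are the 44 members lower at d10 than at d7 and the 32 members higher at d15 than at d10.

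From d10 to d15 the direction turned for many members. In this contrast 32 members rose and 8 fell, against 12% and 10.2% of all genes tested. *EPHB6* (4.74, SE 0.44, adjusted p = 2.48e-09), *ZNF750* (3.96, SE 0.66, adjusted p = 1.19e-05), *CEBPA* (2.68, SE 0.20, adjusted p = 6.7e-11) and *CLDN1* (2.67, SE 0.32, adjusted p = 1.29e-07) rose most. *ERBB3* (2.36, SE 0.12, adjusted p = 8.29e-14), *GRHL3* (2.36, SE 0.29, adjusted p = 1.77e-07) and *SERPINB13* (1.98, SE 0.18, adjusted p = 2.57e-09) rose too. *IL1RN* (0.14, SE 0.26, adjusted p = 0.621) and *EVPL* (0.29, SE 0.14, adjusted p = 0.0657) did not pass the test. *E2F2* (-2.38, SE 0.13, adjusted p = 6.7e-13), *GLDC*, the glycine decarboxylase (-1.23, SE 0.26, adjusted p = 0.000206), and *PRICKLE1*, a planar polarity gene (-1.21, SE 0.15, adjusted p = 1.47e-07), fell most. Quantile normalization left 23 higher and 13 lower. In the same contrast 33 of 37 cell cycle genes were lower and none higher, 18 of 28 p53 targets were higher and 1 lower, and 2 of 10 mammary epithelial markers were higher and none lower. Their part in the members' values was not tested.

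From d15 to d20, 11 members rose and 18 fell, against 7.55% and 7.43% of all genes tested. *GPX2* (2.23, SE 0.27, adjusted p = 2.47e-07), *E2F2* (1.95, SE 0.13, adjusted p = 3.18e-11) and *GLDC* (1.60, SE 0.26, adjusted p = 1.13e-05) rose most. *EPHB6* (-2.96, SE 0.44, adjusted p = 3.63e-06), *CEBPA* (-2.06, SE 0.20, adjusted p = 7.05e-09) and *GLS2*, a glutaminase (-2.05, SE 0.30, adjusted p = 3.12e-06), fell most. *CLDN1* (-0.14, SE 0.32, adjusted p = 0.703) did not pass the test, whereas *ERBB3* (-1.58, SE 0.12, adjusted p = 1.01e-10) fell. The cell cycle list had 34 of 37 genes higher and none lower, and the p53 targets had 15 of 28 lower and none higher, and the part of either was not tested.

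Between the first and the last treated day, d20 against d1, 28 members fell and 0 rose, against 1.83% and 2.74% of all genes tested. Only 31 members had a d1 mean low enough to double within the cap, so this 0 is also partly set by the rule. It cannot be read against the 2.74%. *LZTS1* (-2.67, SE 0.19, adjusted p = 6.84e-10), *IGFBP2* (-2.64, SE 0.22, adjusted p = 5.32e-09) and *MAL2* (-2.19, SE 0.08, adjusted p = 8.15e-15) fell most. *EVPL* (-1.19, SE 0.14, adjusted p = 7.17e-07), *TFAP2C* (-1.46, SE 0.16, adjusted p = 3.65e-07), *CRABP2* (-1.35, SE 0.17, adjusted p = 2.24e-06) and *SERPINB13* (-1.47, SE 0.18, adjusted p = 1.94e-06) fell as well. *CAMK2B* (-0.16, SE 0.12, adjusted p = 0.3) and *CLDN1* (0.23, SE 0.32, adjusted p = 0.59) did not pass the test. For the count of 0 in limma, 3 members were higher at an unadjusted p under 0.05, none of them at a fold of at least 2, and edgeR and DESeq2 each called 0 higher and 29 lower. The median member differed by -0.63 and the median gene by 0.00. The junction and polarity list had 13 of 34 genes lower and none higher, while the mesenchymal markers had 7 of 10 higher and none lower.

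A further 20 members passed in none of the 6 contrasts between treated days, among them *GPM6B*, *ACCN2* and *MAML3* from the genes described above. *LOC202781* and *LOC100505761* had the least variable means of these, with ratios of the highest to the lowest treated mean of 1.28 and 1.30. The same 20 included *KHK* (ketohexokinase), *CCNA1* (cyclin A1), *ELAVL2* (an RNA-binding protein), *SLC16A7* (a monocarboxylate transporter) and *SULT1A1* (a phenol sulfotransferase with near-identical paralogs, so its reads are uncertain). Without the third d7 library 3 of the 20 passed: *ACCN2* was lower and *SLC16A7* higher at d10 than at d7, with log2 differences of -1.16 and 1.07, and *SAMD10* was lower at d7 than at d4, with -1.10.

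None of 31 listed interferon-stimulated genes, 8 BMP and SMAD1/5 genes, 12 Notch pathway genes, 19 WNT pathway genes, 26 p53 targets or 32 cholesterol and fatty acid synthesis genes with a d0 mean at or above the minimum met the rule. The lists are not complete: they did not hold the members *MAML3* and *TM7SF2*, named above as a Notch coactivator and a sterol reductase. The rule held for 0.917% of all genes at or above that minimum. A count of 0 in lists of this size is therefore near the background and says nothing about these pathways. The members lay on many chromosomes, and in 2 pairs, *TMEM125* with *C1orf210* and *GBP6* with *LRRC8B*, 0 protein-coding genes of the RefSeq annotation lay between the pair. The transmembrane serine protease genes *TMPRSS13* and *TMPRSS4* had 2 protein-coding genes between them, neither of them measured at or above the d0 minimum.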

How the data were processed

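RNA from untreated HMLE cells and HMLE cells on 6 days of TGFβ treatment was sequenced in 21 libraries, 3 per day. The authors deposited a normalized signal per gene symbol, made by dividing each gene's reads by 1 size factor per library and rounding. The submitters' processing notes name STAR 2.7, Salmon 1.4 and hg19 without giving their roles, and the annotation is not given in the sources used here. Dividing the values by each library's smallest step gave whole reads for 100% of them (within 0.0051 normalized reads, the rounding, plus 1e-06 per read), with 18847917 to 22667754 reads per library. Values of few reads are imprecise by counting alone, and 3 libraries can by chance lie closer together than that. Columns gave the day but no replicate number, and 0 columns were left unmapped.

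The members and gene lists were chosen with earlier results of these data known. Genes with a mean of at least 10 (13343) were tested with limma 3.58.1 in R 4.3.3 (trend, 1 mean per day, log2(value + 1), two-sided, Benjamini-Hochberg over all genes tested within a contrast), with calls at an adjusted p under 0.05 and a fold of at least 2. Scripts were tested on simulated data. Members were named by d0 mean (8 highest), by the lowest ceiling on treated days (8), by closeness to the cap (3 inside and 3 outside), by the largest calls per contrast (3 per direction) and by up to 4 members of each list, with the transcription factors in full; other genes complete a count or were named after their values were seen. Alternatives were a pseudocount of 10, no filter, other scalings, other fits, edgeR 4.0.16, DESeq2 1.42.0, no minimum fold, other limits of the rule, and each library left out. Promoters came from a RefSeq table of GRCh38.p14, with 5 members matched under an older symbol.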

Additional observations from a re-analysis of the deposited data

How the results depend on the processing

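The number of members was 33 with a stricter cap (d0 over 3), 191 with a looser cap (d0 over 1.5), and 76 to 93 when each library was left out in turn. Rescaling to the same total gave 123, with all 88 kept and *EPCAM* and *CGN* among those gained. Quantile normalization gave 94, of which 84 were shared with the 88, and medians of 3 libraries gave 80, of which 76 were shared. A d0 minimum of 50 gave 114 and one of 200 gave 59. With no minimum fold, 9 members rose and 36 fell from d1 to d4, and 31 rose and 12 fell from d4 to d7. At d10 against d7, 8 rose and 61 fell, and at d15 against d10, 51 rose and 18 fell. At d20 against d15, 19 rose and 37 fell, and at d20 against d1, 3 rose and 47 fell. With a pseudocount of 10, 2 rose and 5 fell from d1 to d4, 4 rose from d4 to d7 and 2 fell from d10 to d15. Quantile normalization gave 2 higher from d1 to d4, 2 lower from d4 to d7, 4 higher from d7 to d10 and 13 lower from d10 to d15. Rescaling to the same total gave 5 lower from d10 to d15, and edgeR and DESeq2 each gave 11 higher from d4 to d7. Leaving out 1 library moved the members higher from d4 to d7 to between 4 and 15 and those lower to between 1 and 3, and those higher from d7 to d10 to between 0 and 4, with the highest of each range coming without the third d7 library and the lowest of the first without the first or the second d7 library. The causes of these differences were not tested. For the 105 differences called in named members, all 1470 alternative values kept their direction, 1369 kept the call and 101 lost it. No paired analysis was possible because replicate numbers are absent from the columns, which name the day only. Depth limited values near 3 reads, as for *BBOX1*, whose decrease from d1 to d20 was not called by edgeR or DESeq2, and for *PRR15L*.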
